A study of Mus musculus with 12 samples.

Results

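The 10 genes described here include the sestrins (Sesn1, Sesn2, Sesn3), a family with leucine sensors, and the GATOR1 complex downstream of them (Depdc5, Nprl2, Nprl3). The others encode the Rag GTPases that GATOR1 controls (Rraga, Rragc, Rragd) and the kinase at the end of that route (Mtor). All 10 were taken by symbol from a table of 47730 features, were present and passed the filter on low values in both tissues. In the known pathway, leucine releases the sestrins that bind it from GATOR2, and GATOR2 then holds back GATOR1. GATOR1 is the GTPase-activating complex that switches off RagA or RagB. An active Rag pair, RagA or RagB bound to RagC or RagD, brings the kinase complex mTORC1 to the lysosome, where Rheb activates it. In skeletal muscle this route is known for tying protein synthesis to the supply of branched-chain amino acids, and in testis mTORC1 is known for its part in germ cell differentiation. In GENCODE M21 (GRCm38), 5 of the 10 lie on chromosome 4 but far apart: Rragd at chr4:32983037-33022180, Rraga at chr4:86575668-86577285, Rragc at chr4:123917446-123936997, Sesn2 at chr4:132492032-132510501 and Mtor at chr4:148448611-148557683. The others are Sesn1 at chr10:41809935-41908424, Sesn3 at chr9:14275067-14333101, Nprl2 at chr9:107542226-107545706, Depdc5 at chr5:32863701-32994236 and Nprl3 at chr11:32225628-32267707.

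The study compared male C57Bl/6J mice homozygous for a mutant Bckdk allele (BckdkM/M) with Bckdk+/+ mice, 5 to 6 months old, in an allele background backcrossed for at least 10 generations. Bckdk encodes the kinase that inhibits the branched-chain ketoacid dehydrogenase, the enzyme that commits leucine, isoleucine and valine to breakdown. All mice ate freely and were killed between ZT6 and ZT7, hours counted from lights on. PolyA RNA from gastrocnemius with plantaris muscle and from testis was sequenced in 12 libraries, 3 for each of 4 groups: Bckdk+/+ muscle, BckdkM/M muscle, Bckdk+/+ testis and BckdkM/M testis. The column names carry mouse numbers, replaced here by letters: mice A, B and C gave both wild-type tissues, D and F gave both tissues labelled mutant, G gave muscle only and E testis only. Whole tissue holds many cell types, so that fewer cells of a type and less RNA per cell cannot be told apart in any value below.

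Values are the deposited normalised counts (reads divided by a size factor per library) unless a level per length is named. Each library held 12852427 to 15795722 reads counted to genes. In muscle, Bckdk itself stood at 2214, 2421 and 2627 normalised counts in wild type and at 14.8, 14.3 and 12.4 in the mutants. In testis the libraries labelled mutant gave 138, 119 and 114 against 68.0, 73.3 and 71.0 in wild type, so that Bckdk went against the label there. NeoR, a neomycin resistance feature of the table, went with the labels in both tissues, at 208 to 266 in mutant muscle against 2.28 to 3.85 in wild type, and at 13.1, 19.9 and 18.6 in testis labelled mutant against 1.76, 2.50 and 3.34. Since the 2 features disagree in testis, those libraries are called "labelled mutant". Skeletal muscle markers (8 genes, summed) ranged from 1515790 to 2756060 normalised counts in muscle and from 227 to 14996 in testis, and male germ cell markers (10 genes) from 159706 to 188565 in testis and from 1411 to 3372 in muscle. Islet cell markers (11 genes) summed to 32588 and 30691 in the muscle of mutants F and G against 13574 to 16029 in the other muscle libraries, and to 19581 and 19459 in the testes of A and B against 10740 to 13958 in the rest of the testis libraries. Muscle G also had 11.5% of its values in mitochondrial genes, against 7.65% to 8.21% in the other muscle libraries.

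Rragd had the largest tissue difference of the 10 genes and Rragc, which encodes the interchangeable subunit, the smallest, so the 250 bases before their RefSeq starts (build GRCm38.p6, plus strand) are shown first. The Rragd window is chr4:32982748-32982997 and the Rragc window chr4:123917183-123917432. Capitals mark CAGCTG in Rragd, 171 bases before the start, and CACGTG in Rragc, 112 bases before the start.
Rragd: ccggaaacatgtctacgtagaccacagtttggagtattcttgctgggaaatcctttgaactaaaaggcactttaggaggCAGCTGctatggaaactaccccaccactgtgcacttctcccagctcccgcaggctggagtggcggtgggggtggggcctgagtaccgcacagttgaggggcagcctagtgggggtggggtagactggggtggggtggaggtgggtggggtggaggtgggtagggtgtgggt
Rragc: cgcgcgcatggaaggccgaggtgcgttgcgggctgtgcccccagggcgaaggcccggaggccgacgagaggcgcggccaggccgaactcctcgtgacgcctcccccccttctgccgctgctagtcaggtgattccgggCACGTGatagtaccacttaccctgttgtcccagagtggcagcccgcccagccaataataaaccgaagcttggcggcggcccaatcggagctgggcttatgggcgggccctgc

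G and C made up 59.6% of the Rragd window and 68.0% of the Rragc window. Windows of 250 bases before to 50 after the start were found for all 10 genes (11 windows, Sesn1 having a pair) and searched on both strands, beside 32851 such windows of all genes. CACGTG, the core of the element that TFEB and its relatives bind, was in the Rragc window only, and in 7.15% of all windows. TGATGNAA, the ATF4 composite element, was in none of the 11 and in 3.97% of all. GTAAACA, a FoxO site, was in a Sesn1 window, 23 bases after the start, and in 3.65% of all. CAGCTG, an E-box of the kind bound by myogenic factors, was added to the search after the Rragd window had been read, was in no other of the 11 windows and was in 16.3% of all. None of the 4 motifs overlapped another in these windows, and a match of letters is a description, not a binding site.

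Rragd, which encodes RagD, was at 3866, 3900 and 4039 normalised counts in wild-type muscle (mice A, B, C), 3777, 2764 and 2812 in mutant muscle (mice D, F, G), 182, 207 and 192 in wild-type testis (A, B, C) and 187, 191 and 180 in testis labelled mutant (D, E, F). Later triplets keep this order of mice. Every muscle library was far above every testis library. Wild-type muscle held 20.3 times the level of wild-type testis, a log2 difference of 4.34 (SE 0.08, adjusted p = 1.66e-09 by limma with Benjamini-Hochberg adjustment over all genes tested), which was above the difference of 95.4% of those genes. The skeletal muscle markers summed to 0.0104% of the muscle mean in testis B, with Rragd at 207, and to 0.294% to 0.686% in the other testis libraries, with Rragd at 180 to 192. The part of muscle transcripts in the testis level of Rragd was not tested.

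Its partner-site paralog Rragc, encoding RagC, was at 579, 509 and 502 in wild-type muscle, 517, 542 and 581 in mutant muscle, 541, 595 and 545 in wild-type testis and 590, 494 and 495 in testis labelled mutant. The 4 groups overlapped. The tissue difference was -0.08 on the log2 scale (95% interval -0.29 to 0.13, adjusted p = 0.415, limma). Rragc was the member whose call depended on the scaling: it was 0.12 with TMM size factors and -0.56 with scaling by total reads, where it was called lower in muscle (adjusted p = 0.00162, limma). The longest overlap of a Rragc exon with an exon of 4930535I16Rik, on the other strand, is 264 bases. Whether reads were counted by strand is not given in the sources used here.

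Levels of different genes were compared per exon length within each library (TPM, the share of length-corrected reads in fixed units, computed from the deposited values). This measure divides by all annotated exons merged, so a gene whose expressed transcripts are shorter is understated. It also scales each library to its own total, unlike the deposited size factors, so TPM values set across tissues depend on that scaling. Rragc was at 22.0 TPM in wild-type muscle and 37.6 TPM in wild-type testis, although its normalised counts overlapped. By that measure Rragd made up 82.7% ± 1.41 (SD, n = 3) of the Rragc and Rragd sum in wild-type muscle and 18.2% ± 0.369 in wild-type testis. The sum itself was 127 ± 11.2 TPM in wild-type muscle and 46.0 ± 2.78 TPM in wild-type testis. The Rragd transcript was thus the more abundant of the pair in every muscle library (75.8% to 83.9%) and that of Rragc in every testis library, where Rragd held 17.0% to 20.0%. In mutant muscle the Rragd share was 78.3% ± 3.66 (SD, n = 3), with mouse D at 82.5% inside the wild-type range of 81.2% to 83.9% and the remaining 2 below it.

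**Figure D1:**
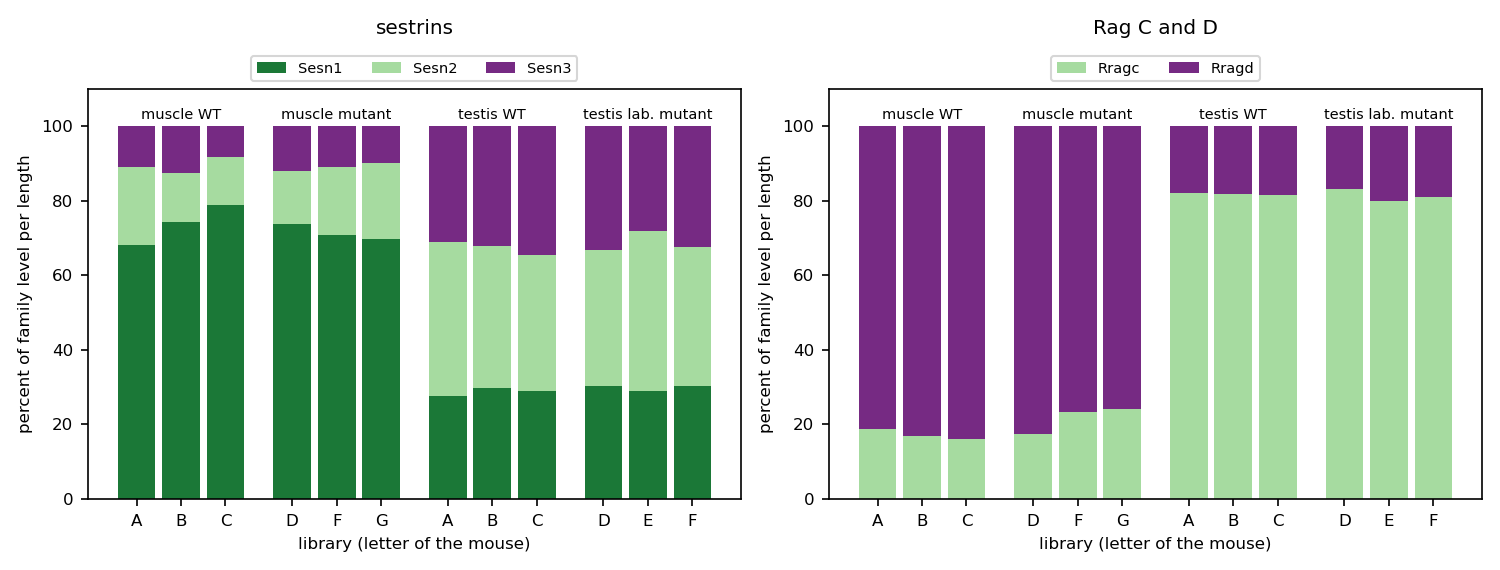
Share of each paralog, in percent of the family's summed level per length, for the sestrins (left) and RagC with RagD (right); each bar is 1 of 12 libraries, lettered by mouse and grouped by tissue and genotype. Rragd holds 75.8% to 83.9% in muscle and 17.0% to 20.0% in testis, and Sesn1 averages 73.8% in wild-type muscle and 28.8% in wild-type testis.

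Rraga, encoding RagA, the subunit on which GATOR1 acts, was at 972, 1069 and 1104 normalised counts in wild-type muscle, 1051, 949 and 1083 in mutant muscle, 290, 315 and 373 in wild-type testis and 329, 369 and 306 in testis labelled mutant. The lowest muscle library was above the highest testis library. Wild-type muscle was 3.21-fold higher than wild-type testis (log2 difference 1.69, SE 0.11, adjusted p = 1.30e-06, limma). The paralog Rragb, which is no member of the set of 10, fell the other way, at 44.2 ± 1.78 in wild-type muscle and 95.8 ± 8.65 in wild-type testis (SD, n = 3). Per length, Rraga was 97.1% ± 0.266 of the RagA and RagB sum in wild-type muscle and 82.4% ± 3.08 in wild-type testis. The proteins of this pair are closely alike, and how reads that match both genes were counted is not given in the sources used here.

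Sesn1, a p53 and FoxO target that binds leucine and GATOR2, was at 515, 584 and 679 normalised counts in wild-type muscle, 466, 474 and 539 in mutant muscle, 296, 331 and 318 in wild-type testis and 330, 327 and 302 in testis labelled mutant. Muscle and testis did not overlap. The wild-type muscle mean was 1.88 times that of testis (log2 difference 0.90, SE 0.12, adjusted p = 1.02e-04, limma). With scaling by total reads the difference was 0.42.

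Sesn2, the leucine sensor induced by ATF4 in the integrated stress response, went the other way. It was at 137, 89.8 and 96.3 in wild-type muscle, 78.7, 106 and 136 in mutant muscle, 387, 368 and 347 in wild-type testis and 345, 419 and 324 in testis labelled mutant. The wild-type testis mean was 3.42 times that of muscle (log2 difference -1.79, SE 0.17, adjusted p = 1.50e-05, limma).

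Sesn3, a FoxO-regulated sestrin, was at 321, 382 and 273 in wild-type muscle, 291, 285 and 296 in mutant muscle, 1277, 1370 and 1454 in wild-type testis and 1382, 1216 and 1238 in testis labelled mutant. Testis was 4.20 times as high as muscle in wild type (log2 difference -2.08, SE 0.13, adjusted p = 8.27e-07, limma). Summed per length, the 3 sestrins reached 27.7 ± 0.951 TPM in wild-type muscle and 61.6 ± 1.37 TPM in wild-type testis (SD, n = 3). The size of this gap depends on the TPM scaling of each library to its own total. Shares within a library do not. Sesn1 alone was 73.8% ± 5.38 of the sestrin sum in muscle, while in testis Sesn1 was 28.8% ± 1.14, Sesn2 38.6% ± 2.60 and Sesn3 32.6% ± 1.84. The shares rest on exon lengths of 3982 bases for Sesn1, 3475 for Sesn2 and 15269 for Sesn3. By these lengths Sesn1 held most of the family transcript in every muscle library (68.2% to 78.9%). No sestrin did so in testis, where single libraries ran at their widest from 27.6% for Sesn1 to 41.4% for Sesn2 in wild-type A and from 28.2% for Sesn3 to 42.7% for Sesn2 in E labelled mutant.

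The GATOR1 subunits were all lower in muscle by the deposited scaling, by unequal amounts. Depdc5, the subunit that contacts the Rag GTPases, was at 213, 199 and 141 in wild-type muscle, 154, 162 and 99.5 in mutant muscle, 591, 587 and 632 in wild-type testis and 624, 560 and 617 in testis labelled mutant. The wild-type testis mean was 3.27 times that of muscle (log2 difference -1.73, SE 0.16, adjusted p = 1.01e-05, limma). Muscle and testis were widely apart for this subunit.

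Nprl2, which carries the GTPase-activating residue of the complex, was at 209, 184 and 217 in wild-type muscle, 178, 195 and 238 in mutant muscle, 318, 289 and 293 in wild-type testis and 309, 300 and 339 in testis labelled mutant. Testis was 1.47 times as high (log2 difference -0.56, SE 0.11, adjusted p = 0.00142, limma). Nprl3, the subunit that pairs with Nprl2, was at 353, 327 and 376 in wild-type muscle, 423, 351 and 309 in mutant muscle, 459, 478 and 453 in wild-type testis and 519, 490 and 466 in testis labelled mutant. Testis was 1.32 times as high in wild type (log2 difference -0.40, SE 0.09, adjusted p = 0.00284, limma), a call that was lost with edgeR on the recovered reads (-0.20, adjusted p = 0.0706) and without the wild-type testes of A and B (-0.37, adjusted p = 0.0946). The longest overlap of a Nprl3 exon with an exon of Mpg, on the other strand, is 1127 bases. The exon lengths used were 2013 bases for Nprl2, 7572 for Nprl3 and 11774 for Depdc5, and the order per length depends on them. Per length, the subunits kept the same order in both tissues, Nprl2 at 61.9% ± 1.64, Nprl3 at 28.5% ± 0.848 and Depdc5 at 9.65% ± 2.24 of the GATOR1 sum in wild-type muscle, and 57.0% ± 1.55, 23.4% ± 1.06 and 19.6% ± 1.02 in wild-type testis (SD, n = 3).

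Mtor, the kinase of both mTOR complexes, was at 747, 822 and 720 normalised counts in wild-type muscle, 691, 568 and 440 in mutant muscle, 3755, 3704 and 3781 in wild-type testis and 3606, 3758 and 3782 in testis labelled mutant. The testis libraries lay within 4.90% of each other. Wild-type muscle held 20.4% of the wild-type testis level (log2 difference -2.30, SE 0.07, adjusted p = 2.43e-08, limma), the lowest difference among the 10 genes.

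**Figure D2:**
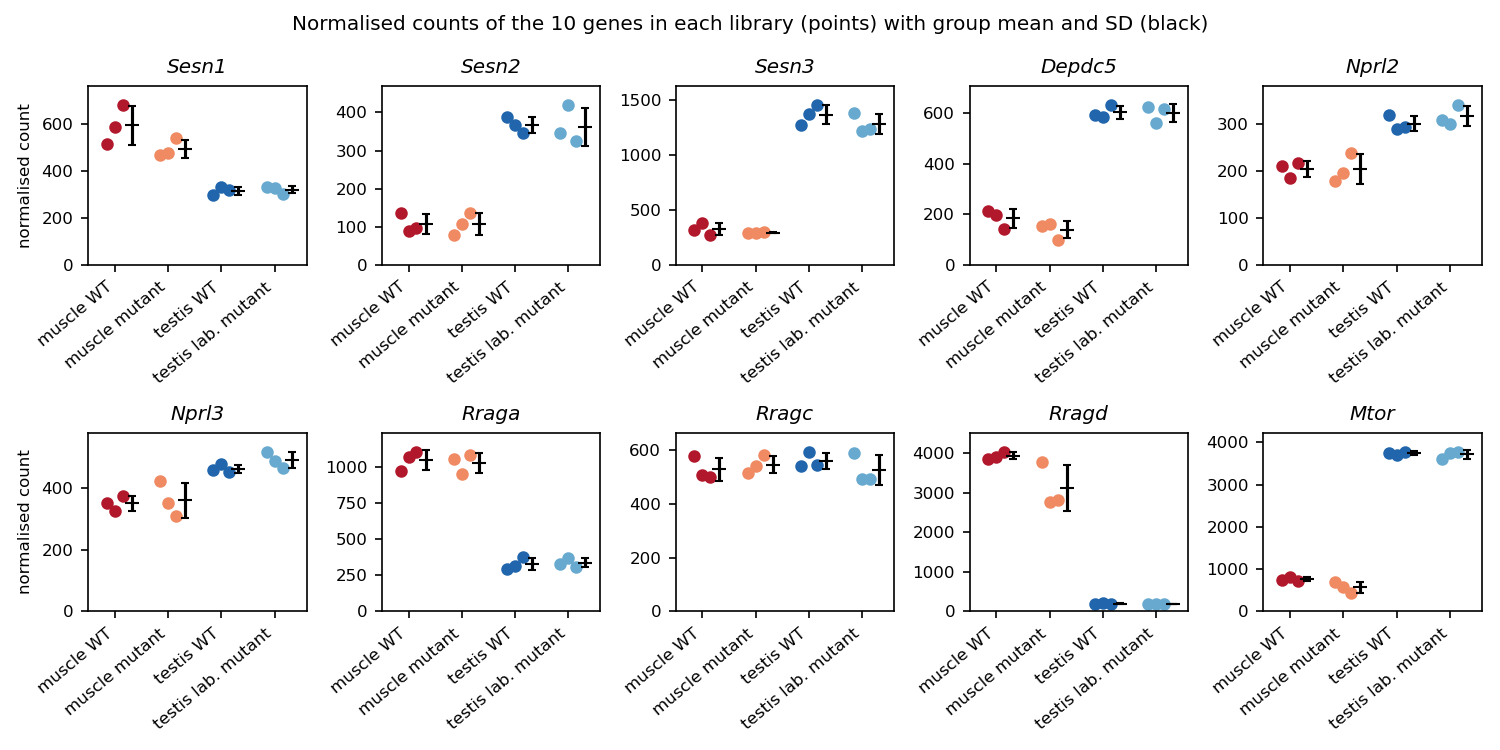
Normalised counts (linear axes from 0, one panel per gene) of the 10 genes in the 3 libraries of each group (points), with the group mean and SD in black. Rragd, Rraga and Sesn1 are higher in every muscle library than in any testis library; Sesn2, Sesn3, Depdc5, Nprl2, Nprl3 and Mtor are lower; Rragc overlaps.

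Of the 10 genes, 9 were called different between wild-type muscle and wild-type testis (adjusted p under 0.05), 3 higher and 6 lower in muscle. This share is close to the background, since 87.9% of the 19994 genes tested were called, 37.3% higher and 50.6% lower, and 89.4% of all genes did not overlap between the groups. The scaling moves the midpoint: the median log2 difference of all genes was -0.48 with the deposited size factors, -0.28 with TMM, -0.39 with median-of-ratios factors fitted to the 6 libraries and -0.95 with scaling by total reads. Relative to the median of all genes, Rragd was at 4.82, Rraga at 2.16, Sesn1 at 1.38, Rragc at 0.39 and Nprl3 at 0.08, and Nprl2 was at -0.08, Depdc5 at -1.25, Sesn2 at -1.31, Sesn3 at -1.60 and Mtor at -1.82. Nprl2 and Nprl3 thus sat at the middle of all genes, 5 of the 10 lay above it and 5 below, and the median of the 10 was -0.48, as for all genes.

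**Figure D3:**
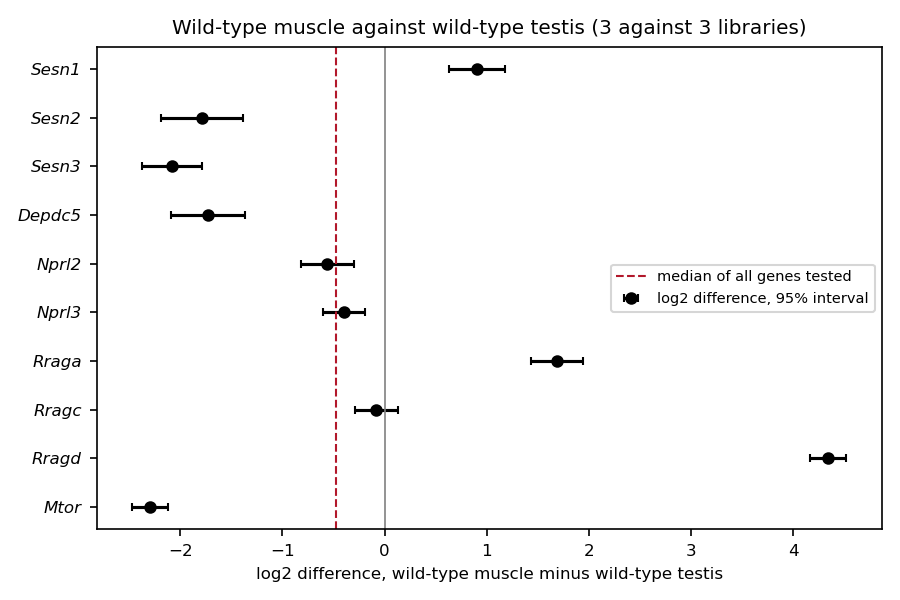
Log2 difference of each gene between wild-type muscle and wild-type testis with its 95% interval (3 against 3 libraries); the dashed line is the median of all 19994 genes tested, at -0.48. Rragd lies at 4.34 and Mtor at -2.30, while the intervals of Nprl2 and Nprl3 span the dashed line.

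The order of the levels per length differed between the tissues. In wild-type muscle it ran from Rragd at 105 ± 7.81 TPM and Rraga at 89.2 ± 5.48, through Rragc at 22.0 ± 3.59, Sesn1 at 20.4 ± 1.10, Nprl2 at 13.9 ± 1.28, Mtor at 10.5 ± 1.51 and Nprl3 at 6.40 ± 0.431, to Sesn2 at 4.31 ± 1.31, Sesn3 at 2.97 ± 0.705 and Depdc5 at 2.19 ± 0.633 (SD, n = 3). Neighbours whose libraries overlapped were Rragc with Sesn1, Sesn2 with Sesn3, and Sesn3 with Depdc5. In wild-type testis Mtor came first at 83.2 ± 0.583 TPM, followed by Rraga at 45.3 ± 5.92, Rragc at 37.6 ± 2.22, Nprl2 at 33.4 ± 1.59, Sesn2 at 23.7 ± 1.29, Sesn3 at 20.1 ± 1.34, Sesn1 at 17.8 ± 1.09, Nprl3 at 13.7 ± 0.450, Depdc5 at 11.5 ± 0.459 and Rragd at 8.40 ± 0.585. There Rraga overlapped Rragc, and Sesn3 overlapped Sesn1. Rragd was first in wild-type muscle and last in testis, and the ratio of the highest to the lowest member was 47.9 in wild-type muscle and 9.91 in wild-type testis.

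No member was called between mutant and wild-type muscle, where 6 of 16246 genes were called (0.0369%) by limma, and none by edgeR or DESeq2 on the recovered reads. An unadjusted p under 0.05 was reached by 2 of the 10 with limma and by 1 with each of the other tools. Mtor and Rragd were the 2 members whose mutant libraries were all below the wild-type ones. Lower groups without overlap were seen in 8.85% of all genes, and 2 of 10 is too few to set apart from that share. Mtor averaged 763 ± 53.0 in wild type and 567 ± 125 in mutants (SD, n = 3 each), a log2 difference of -0.45 (SE 0.17, 95% interval -0.83 to -0.08, unadjusted p = 0.0227, adjusted p = 0.519, limma). Rragd averaged 3935 ± 91.8 and 3118 ± 572, a log2 difference of -0.35 (SE 0.15, 95% interval -0.68 to -0.02, unadjusted p = 0.0411, adjusted p = 0.519, limma). An unadjusted p under 0.05 with a lower mean was reached by 6.31% of all genes tested, and over the alternatives the adjusted p ranged from 0.0651 to 1.00 for Mtor and from 0.0711 to 1.00 for Rragd.

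Both differences rested on mutants F and G, the muscle libraries with the high islet marker sums. Mouse D was at 691 for Mtor, against a lowest wild-type value of 720, and at 3777 for Rragd, against 3866. Without F and G, mouse D alone stood against the wild types at -0.14 for Mtor and -0.06 for Rragd, taking its spread to be that of the wild types. Without G alone, Mtor was at -0.28. Without D, the differences were -0.61 for Mtor and -0.50 for Rragd (adjusted p = 0.0651 and 0.0711, limma), in a comparison where 497 genes were called in place of 6. The skeletal muscle marker sum in G was 69.4% of the muscle mean and the adipocyte marker sum (9 genes) 245%, against 93.5% and 77.3% in F. The same libraries were lowest in male germ cell markers, which summed to 1514 and 1411 in F and G against 2756 to 3372 in the other 4, with Prm2 at 226 and 141 against 427 to 612 and Ddx4 at 23.4 and 32.1 against 67.2 to 92.4. Red blood cell markers (6 genes) were higher in all mutant muscle, D included, at 3626 to 6005 against 2731 to 2871 in wild type. Macrophage markers (8 genes) summed to 4803 and 4649 in F and G against 3489 to 3872 in the other 4. Wild types differed among themselves too, with the adipocyte sum of C at 23.1% of the muscle mean. Slow fibre markers (10 genes) summed to 2985, 11024 and 4034 in wild types A, B and C and to 8493 to 11760 in mutants. The part of these cell and fibre types in the Mtor and Rragd values was not tested.

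For the remaining 8 genes the mutant and wild-type muscle libraries overlapped. Depdc5 differed by -0.42 (95% interval -0.94 to 0.10), Sesn1 by -0.26 (-0.58 to 0.07), Sesn3 by -0.15 (-0.50 to 0.20), Rraga by -0.03 (-0.31 to 0.25), Sesn2 by -0.02 (-0.58 to 0.53), Nprl2 by -0.01 (-0.39 to 0.37), Nprl3 by 0.03 (-0.32 to 0.38) and Rragc by 0.05 (-0.25 to 0.34), all on the log2 scale. These intervals allow changes of the size seen for Mtor in Depdc5, Sesn1, Sesn3 and Sesn2, but not in Rraga, Nprl2, Nprl3 or Rragc in the downward direction. Rraga, Sesn2 and Nprl2 changed sign with other scalings. The median of the 10 genes was -0.09 beside -0.04 for all genes.

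**Figure D4:**
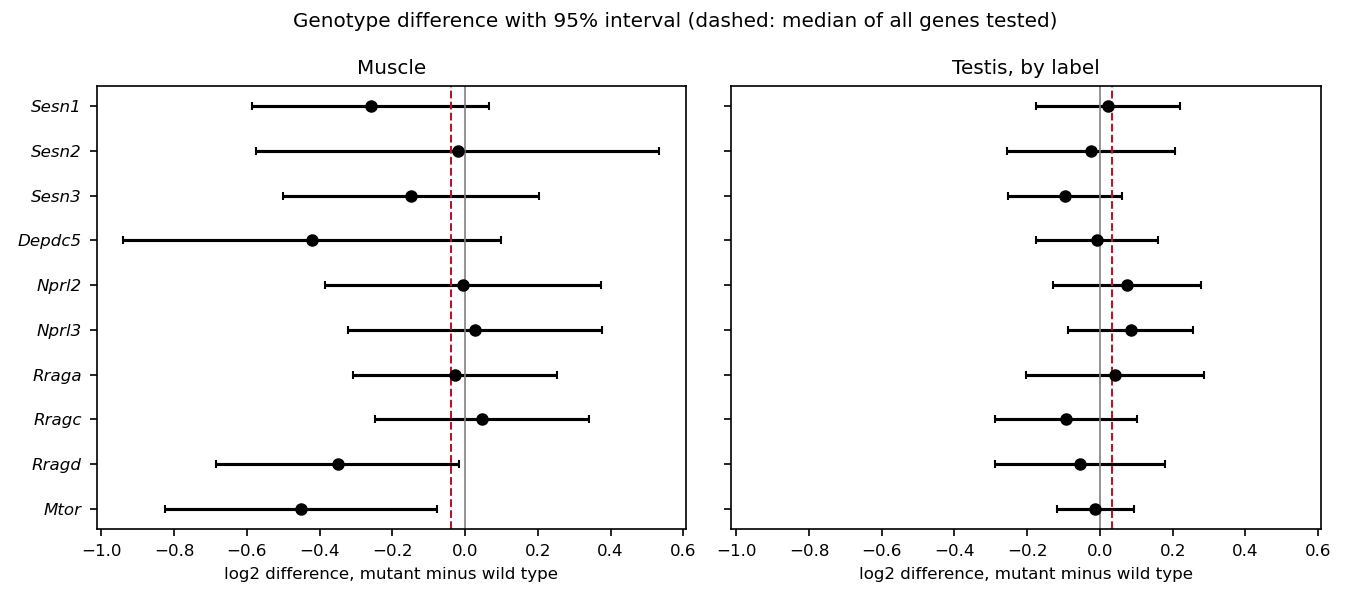
Log2 difference between mutant and wild-type muscle (left) and between testis labelled mutant and wild-type testis (right) for the 10 genes, with 95% intervals (3 against 3 libraries each); dashed lines mark the median of all genes tested, -0.04 in muscle and 0.03 in testis. Only the muscle intervals of Mtor and Rragd leave out 0, before any adjustment for multiple tests, and the testis intervals are narrower.

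In testis no member was called between libraries labelled mutant and wild type (background 0.0205%, 4 of 19543 genes), by limma, edgeR or DESeq2, and none reached an unadjusted p under 0.05 with any of them, while 7.09% of all genes did with limma. The log2 differences ran from -0.10 for Sesn3 (95% interval -0.25 to 0.06) to 0.08 for Nprl3 (-0.09 to 0.26), and the groups of every member overlapped. Mtor differed by -0.01 (-0.12 to 0.09), an interval that leaves out a fall of the size measured in muscle. With Bckdk against the label in these libraries and NeoR with it (13.1 to 19.9 against 1.76 to 3.34), the comparison describes the libraries as labelled.

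The genotype difference itself was compared between the tissues with an interaction term over the 12 libraries. No member was called by limma, edgeR or DESeq2 (background 0.0136%, 2 of 14677 genes), and 1 reached an unadjusted p under 0.05 with limma (8.69% of all genes). Mtor gave -0.44 (95% interval -0.84 to -0.04, unadjusted p = 0.0352, adjusted p = 0.574, limma) and Rragd -0.30 (-0.65 to 0.06, adjusted p = 0.594). With the mouse as a replicate block, the pairing that this comparison has, Mtor was at -0.26 (unadjusted p = 0.152, adjusted p = 0.886, limma). Mice G and E gave 1 tissue each and add nothing to the blocked term, so its mutants are D and F. The blocked value is therefore no check apart from leaving out muscle G, which put Mtor at -0.27. Mtor was at -0.28 with scaling by total reads and -0.11 without the islet-high libraries. Mtor was called only when mutant muscle D was left out (-0.59, adjusted p = 0.0300), which left F and G as the mutants and 951 of 14482 genes called in place of 2. The block gave 1 gene called by this term in place of 2.

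Spread within a tissue, taken over wild-type and mutant libraries together, separated the genes as well. Genotype differences are thus part of it. Depth differed too: muscle libraries held 69 to 131 reads of Sesn2 and 96 to 187 of Depdc5, against 854 to 1045 of Rraga. Over the 6 muscle libraries the highest value was 2.14 times the lowest for Depdc5, 1.87 times for Mtor, 1.74 times for Sesn2 and 1.46 times for Rragd and for Sesn1, while for Rragc and Rraga it was 1.16 times. In testis the widest member was Sesn2 at 1.29 times and the narrowest Mtor at 1.05 times. Mouse G had the lowest muscle value of Mtor, Depdc5 and Nprl3, mouse F that of Rragd and Rraga, and mouse D that of Sesn1, Sesn2 and Nprl2, so that no single muscle library was lowest for most of the 10.

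The other genes of the pathway give the setting of these values. Of 50 listed, 49 were in the table and 48 passed the filter. Between the wild-type tissues 33 were called higher in muscle, 8 lower and 7 were not called, with a median log2 difference of 0.97 beside -0.48 for all genes, and 40 of the 48 lay above the median of all genes, compared with 5 of the 10 members. The Ragulator scaffold, which anchors the Rag pair to the lysosome, was higher in muscle in all 5 subunits, from 2.51-fold for Lamtor5 and 4.68-fold for Lamtor3 through 5.34-fold for Lamtor1 and 6.67-fold for Lamtor2 to 10.4-fold for Lamtor4. Slc38a9, the lysosomal arginine sensor that binds it, was the exception, at 258 ± 15.0 in muscle and 966 ± 34.4 in testis.

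Within mTORC1, Mtor was the subunit called lower in muscle with the deposited scaling. Rptor, the substrate-binding subunit, differed by -0.07 between the tissues (95% interval -0.29 to 0.16), whereas Mlst8 was 2.28-fold higher in muscle, the inhibitor Akt1s1 6.09-fold and the inhibitor Deptor 22.0-fold. Of the mTORC2 subunits, Rictor was 1.30-fold higher, Mapkap1 was at 69.6% of its testis level, and Prr5 and Prr5l were not called. Rheb, the GTPase that activates mTORC1, was 5.70-fold higher, Tsc2 3.11-fold, Tbc1d7 1.52-fold and Tsc1 1.37-fold, with Rhebl1 not called. The mTORC1 inhibitors Ddit4 and Ddit4l were 1.66-fold and 30.3-fold higher.

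Upstream of GATOR1, the GATOR2 genes were split, with Wdr59 at 1.43-fold, Seh1l at 1.35-fold and Sec13 at 1.27-fold in muscle, and Wdr24 at 63.5% and Mios at 46.4% of the testis level. KICSTOR, which tethers GATOR1 to the lysosome, had Itfg2 at 2.20-fold and Kptn at 2.09-fold, with Kics2 not matched by symbol. Among other nutrient sensors, Sar1b, a leucine sensor and secretory GTPase, was 48.7-fold higher in muscle, the arginine sensor Castor2 10.6-fold, the S-adenosylmethionine sensor Samtor (listed as Bmt2) 2.03-fold and the leucyl-tRNA synthetase (listed as Lars) 1.45-fold. Flcn, which acts on RagC and RagD, was 3.27-fold higher in muscle, and its partners Fnip1 and Fnip2 were not called.

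Of 11 mTORC1 substrates and effectors tested, 8 were higher in muscle: Eif4ebp1 at 7.85-fold, Rps6kb2 at 6.94-fold, Ulk1 at 5.98-fold, Eif4ebp2 at 4.37-fold, Maf1 at 3.75-fold, Rps6kb1 at 3.48-fold, Rps6 at 2.16-fold and Grb10 at 1.89-fold. Lpin1 was at 64.4%, Eif4e at 63.7% and Larp1 at 33.1% of the testis level. Smaller differences in this set depended on the scaling: with total reads Seh1l was at -0.05, Sec13 at -0.15, Tsc1 at -0.02 and Rictor at -0.11 on the log2 scale, and Wdr59, Lars, Tbc1d7 and Ddit4 were no longer called. Sec13 and Rictor also lost their calls without the wild-type testes of A and B, and Ddit4 without that of C (adjusted p = 0.0599), all by limma. Rptor, Fnip1 and the other genes of this set that were not called are given by the main fit alone. Scaling by total reads moved the median of all genes from -0.48 to -0.95.

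**Figure D5:**
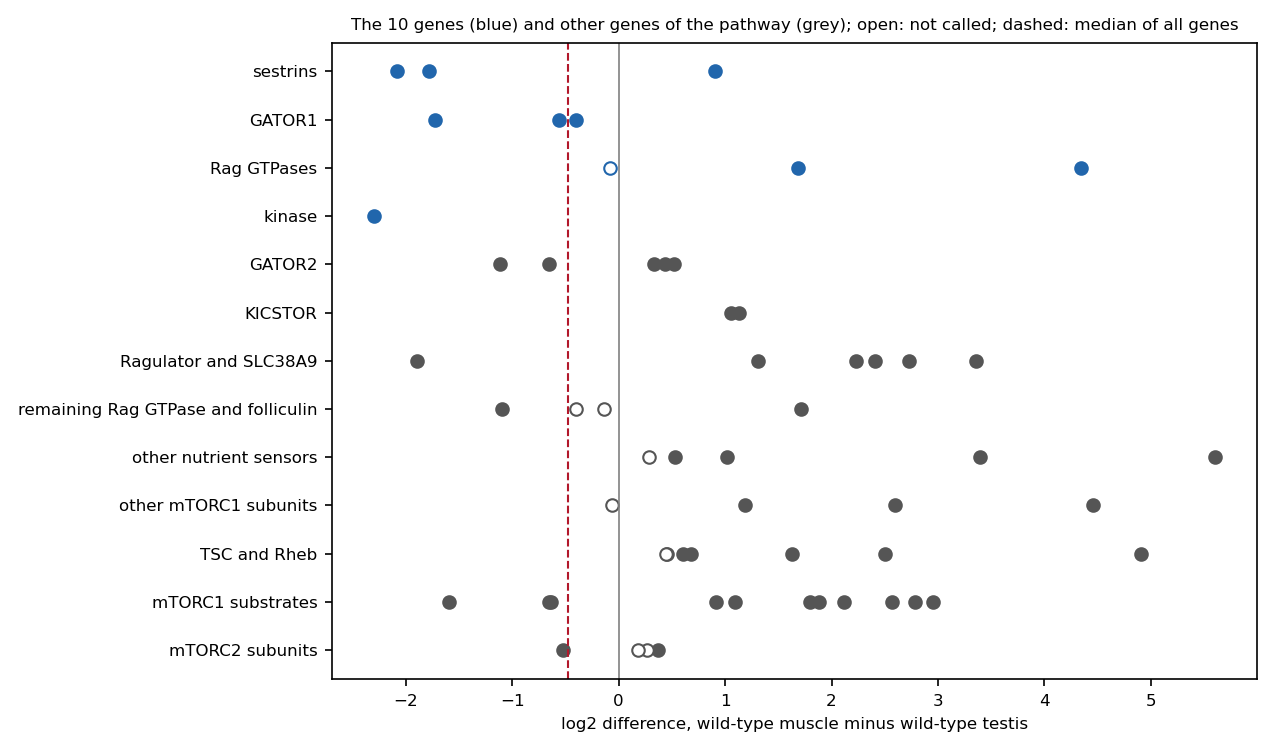
Log2 difference between wild-type muscle and wild-type testis for the 10 genes (blue) and the other pathway genes (grey), one row per complex or role; filled points were called, open points were not, and the dashed line is the median of all genes at -0.48. The Ragulator genes Lamtor1 to Lamtor5 and Rragd lie right of 0, and Mtor, Sesn2, Sesn3 and Depdc5 lie left of the dashed line.

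Transcription factors that are known to act on some of the members were listed with their targets. Over all genes 37.3% were called higher and 50.6% lower in muscle, beside which the counts of these lists stand. Of 12 MiT/TFE genes tested, 10 were higher in muscle, 1 lower and 1 not called. Tfeb, which is known to induce Rragd, was 25.9-fold higher, Mitf 11.7-fold, Ctsd 16.8-fold, Sqstm1 11.0-fold, Ppargc1a 10.3-fold, Gpnmb 7.76-fold, Ctsb 7.73-fold, Mcoln1 4.32-fold, Gla 2.90-fold and Lamp1 1.39-fold, Atp6v1h was at 50.7% of testis, and Tfe3 differed by 0.01 on the log2 scale. Of 10 FoxO genes, 9 were higher: Pdk4 at 144-fold, Fbxo32 at 139-fold, Trim63 at 135-fold, Bcl6 at 21.2-fold, Foxo4 at 19.7-fold, Gadd45a at 15.8-fold, Cited2 at 6.68-fold, Irs2 at 5.77-fold and Foxo1 at 3.25-fold. Sesn1 and Sesn3, both named as FoxO targets, lay on opposite sides in the same comparison.

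Of 10 p53 genes, 6 were higher in muscle (Phlda3 at 96.8-fold, Ccng1 at 71.4-fold, Btg2 at 8.12-fold, Bax at 3.68-fold, Trp53 at 1.98-fold and Cdkn1a at 1.56-fold) and 2 lower (Mdm2 at 47.5% and Zmat3 at 45.3% of testis). Of 12 ATF4 genes, 7 were higher (Chac1 at 101-fold, Vldlr at 94.2-fold, Nupr1 at 15.9-fold, Eif4ebp1 as above, Atf4 at 7.23-fold, Trib3 at 3.08-fold and Atf5 at 1.43-fold) and 4 lower (Ddit3 at 53.0%, Psat1 at 53.1%, Asns at 5.89% and Slc7a11 at 5.05% of testis). Some of these calls depended on the fit. With scaling by total reads Cdkn1a (adjusted p = 0.340), Trib3 (0.0737) and Atf5 (0.798) were not called, and Lamp1 was at -0.01. Cdkn1a was also lost without the islet-high libraries (0.0666) and with all 12 libraries in 1 model (0.0555), and Trib3 without wild-type testis A (0.0865) or C (0.0929), all by limma. Sesn2, an ATF4 target, was on the side of Asns and Slc7a11. Over the 12 libraries the genes whose log2 values followed Rragd most closely were Hk2, Ppp3cb and mt-Nd5 (Pearson r = 0.999 each), as a description of libraries that share a tissue, since 27.7% of 14676 genes reached r of 0.95 or more.

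Between mutant and wild-type muscle none of the 48 other pathway genes was called by limma, edgeR or DESeq2. Their means were lower in mutants for 34 and higher for 14. For scale, 54.7% of all genes tested lay below -0.0063, the difference of Nprl2. The median of the 48 was -0.11, beside -0.04 for all genes. An unadjusted p under 0.05 was reached by 10 of the 48 with limma, beside 9.52% of all genes, and by 7 with each of the other tools. Whether the 48 differ as a set from all genes was not tested. Ulk1, the autophagy kinase that mTORC1 inhibits, differed by -0.56 (SE 0.17), Eif4ebp2, a translation repressor, by -0.81 (SE 0.28) and Tsc1 by -0.57 (SE 0.20). Wdr59 differed by -0.46 (SE 0.16), Castor2 by -0.44 (SE 0.16), Fnip1 by -0.34 (SE 0.15) and Flcn by -0.30 (SE 0.14). Ddit4l, for which the main fit alone is given here, differed by -0.46 (SE 0.16). Each of these genes had adjusted p = 0.519 (limma). Ulk1, Eif4ebp2 and Tsc1 were called when mutant D was left out (adjusted p = 0.0474, 0.0264 and 0.0264), a fit that called 497 of 15964 genes and whose mutants were F and G, the libraries apart in islet, germ cell and, for G, adipocyte and mitochondrial values. Over the 6 muscle libraries the genes nearest to Mtor were Hist1h1e (r = 0.999), Rere and Synrg (r = 0.998 each), among 16245 genes of which 3.63% reached 0.95. In the lists of transcription factors with their targets, no gene was called between mutant and wild-type muscle by limma. Their median log2 differences were 0.30 for ATF4, -0.30 for FoxO, -0.04 for p53 and -0.05 for MiT/TFE, beside -0.04 for all genes. Whether these lists differ as sets from all genes was not tested.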

How the data were processed

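Per the submitters' processing notes, fastp 0.23.4, HISAT2 2.1.0, Picard 1.119, HTSeq 0.11.2 and DESeq2 1.46.0 were used with build GRCm38.p4; annotation and strand setting are not given in the sources used here. The first deposited table holds a signal per gene, read counts that the authors divided by a size factor per library over all 12 libraries, and its values were whole multiples of the value of 1 read (0.829 to 1.28) in 100% of cells within 0.001. In the authors' second table, of deposited log2 values (regularised, 27384 features), the same libraries were used as an alternative. In testis D 26 cells of the first table held dates and were treated as missing; no member was among them.

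The members and lists were chosen with earlier results of these data known. log2(value + 1) was fitted with limma 3.58.1 (R 4.3.3; trend, two-sided) on the 6 libraries compared, or all 12 for the interaction, over genes at 10 or more in at least 3 of 6 libraries (in each tissue for the interaction). Calls are Benjamini-Hochberg adjusted p under 0.05 over all genes tested; log2 folds of low genes are understated by the pseudocount. The procedure was tested on simulated data with the same dispersion for every gene and no deviating library. That setting does not cover the shifts seen here when a library was left out. TPM used the merged length of all exons annotated to a gene in GENCODE M21, and promoters came from RefSeq tables of GRCm38.p6. Alternatives were other pseudocounts (0.5, 8), filters, scalings, rlog values, edgeR 4.0.16 and DESeq2 1.42.0 on recovered reads, leaving out libraries, and 1 model for all 12; scaling by total reads and the CAGCTG search were added after seeing the data. Libraries of a tissue with an islet marker sum over 1.25 times the median were left out in another. All 10 members were named; of other lists, every gene called, or at most 2 with the smallest p where none was called.

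Groups come from column names that match tissue and genotype in the labels; the labels' replicate numbers could not be tied to columns. Mouse numbers in the column names tie both tissues of mice A, B, C, D and F to the same animal, so the mouse pairs the tissue comparison and the interaction. Deviations of the paired libraries from their group means correlated at -0.026, 0.0085, 0.0053, -0.021 and -0.036 over 14677 genes. The labels name biological replicates. Protein sequences were not used here. 1 gene of the pathway is not reported here.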

Additional observations from a re-analysis of the deposited data

How the results depend on the processing

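Of the 9 members called between the wild-type tissues, Nprl3 lost its call under 2 alternatives (edgeR, and without the libraries high in islet transcripts) and the other 8 were called under all 19; Rragc was called under 1, scaling by total reads. In the genotype and interaction comparisons, 1 of the 30 member results was called under any alternative, the Mtor interaction without mutant muscle D. Differences near 0 changed sign, none of them called after it.

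With TMM scaling the muscle genotype difference became 0.022 for Sesn2, 0.036 for Nprl2 and 0.014 for Rraga, the testis difference -0.016 for Sesn1, the tissue difference 0.12 for Rragc, and the interaction 0.020 for Sesn3, 0.015 for Nprl3 and 0.0037 for Rraga. With median-of-ratios scaling the same muscle values were 0.029, 0.043 and 0.021, Sesn1 in testis -0.013 and Rragc between tissues 0.0097. With DESeq2 they were 0.043, 0.056, 0.022, -0.014 and 0.012, and with edgeR 0.035, 0.048, 0.015, -0.017 and 0.12, with edgeR interactions of 0.0014 for Sesn3, 0.0042 for Nprl2, 0.022 for Nprl3 and 0.0087 for Rraga. Scaling by total reads gave 0.086 for Sesn2, 0.10 for Nprl2 and 0.078 for Rraga in muscle, -0.033 for Sesn1 and -0.014 for Rraga in testis, and interactions of 0.11 for Sesn3, 0.081 for Nprl2, 0.10 for Nprl3 and 0.093 for Rraga; between the tissues it gave -0.047 for Seh1l, -0.15 for Sec13, -0.023 for Tsc1, -0.11 for Rictor and -0.013 for Lamp1. Without the libraries high in islet transcripts Rraga was at 0.0063 and Rragc at -0.034 in muscle, Sesn2 at 0.057 and Rraga at -0.16 in testis, and the interaction was -0.48 for Sesn2, 0.039 for Sesn3, 0.15 for Nprl3 and 0.17 for Rraga.

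The mouse as a replicate block changed no member's call; the tissue comparison called 17403 genes with it and 17575 without, the interaction 1 and 2, and the interaction of Sesn2 was -0.075 and that of Nprl3 0.047. In the blocked interaction muscle G and testis E add nothing, since those mice gave a single tissue. No paired analysis was possible within a tissue because wild-type and mutant libraries come from different mice.

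Leaving out 1 library at a time, members that changed sign ranged in muscle from -0.21 to 0.18 (Sesn2), -0.12 to 0.085 (Nprl2), -0.093 to 0.13 (Nprl3) and -0.082 to 0.027 (Rraga). In testis they ranged from -0.022 to 0.063 (Sesn1), -0.13 to 0.051 (Sesn2), -0.037 to 0.041 (Depdc5), -0.039 to 0.14 (Rraga) and -0.025 to 0.0090 (Mtor). In the interaction they ranged from -0.18 to 0.21 (Sesn2), -0.17 to 0.069 (Sesn3), -0.20 to 0.011 (Nprl2), -0.18 to 0.049 (Nprl3) and -0.17 to 0.011 (Rraga). Where a group is left with 1 library, it is taken to vary like the others.

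Genes called for genotype in muscle numbered 6, but 34 with DESeq2, 28 with all 12 libraries in 1 model, 14 with no filter and 3 to 497 with 1 library left out, 497 without mutant D. In testis they numbered 4, but 10 with DESeq2, 2 with TMM, median-of-ratios or total-read scaling or rlog values, 1 with a pseudocount of 0.5, with a mean of at least 50 or without the islet-high libraries, and 1 to 6 with 1 library left out. The interaction gave 2, but 50 with DESeq2, 1 with edgeR, without a filter, with a mean of at least 50 or without the islet-high libraries, and 1 to 951 with 1 library left out, 951 without mutant muscle D. The cause of these shifts was not tested. The count of 12148 between the tissues without the islet-high libraries, in place of 17575, came with fewer genes tested and 1 testis library. With 3 libraries a group, muscle intervals of the members, not adjusted for multiple tests, were 0.28 to 0.55 wide on either side of the difference. A genotype difference smaller than the width for its own gene could not be called. Larger differences could go uncalled too, since a call needed a small adjusted p. Mtor at -0.45 (interval -0.83 to -0.08) and Rragd at -0.35 (-0.68 to -0.02) had adjusted p = 0.519 (limma).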
